A study of Mus musculus with 15 samples.

Results

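Genes of the eosinophil granule and cell surface were followed in RNA from whole lungs. They were taken by symbol from the deposited table of raw counts, which lists 46603 genes, and all 9 were found: Prg2, Epx, Ear1, Ear2 and Ear6 for granule proteins, Siglecf, Ccr3 and Il5ra for receptors, and Alox15 for a lipid-oxidising enzyme. The lungs came from 15 athymic Swiss nude (Foxn1nu/nu) mice aged 8 to 12 weeks. The 6 SCR-treated mice had been given 25 µL per day of the secretome of 143B cells, a human osteosarcoma line, into the peritoneum for 1 week. The 5 PT-bearing mice carried a subcutaneous primary tumour grown from 500000 143B-Luc+ cells, which express luciferase, and were killed after 8 to 10 days at 50 to 60 cubic millimetres. The 4 control mice (CTR) had neither, and the study calls its controls vehicle-treated in some places and untreated in others. All the mice share the Foxn1 defect, so they have no thymus and few mature T cells, and the tumour cells came from a single human line. One library was made per lung, with 12767431 to 22109856 counts.

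Eosinophils are granulocytes that mature in the bone marrow under interleukin 5, leave it for tissues along eotaxin gradients, and store cationic proteins in their granules. The granule genes Prg2 and Epx are transcribed mostly while the cells mature, so a tissue eosinophil holds little of their mRNA. In the mouse lung, Siglec-F and ribonucleases of the Ear family are also made by alveolar macrophages, the resident phagocytes of the airspace. Il5ra is also found on some mouse B cells, and Alox15 on some resident macrophages. In RNA of a whole lung, fewer cells of a type and less RNA per cell cannot be told apart.

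Ear1, Ear2 and Ear6 lie on chromosome 14 (GRCm38) and are near copies of each other, which bears on every count given for them. Their coding sequences were 95.7% identical between Ear1 and Ear2, 88.2% between Ear2 and Ear6 and 97.0% between Ear2 and Ear10, a further copy that is not among the 9 genes. Bases 61 to 150 of each coding sequence (GENCODE M21) are shown because they let a reader see how few bases tell the copies apart, with capitals where a base differs from Ear2. The coding sequence lies at chr14:44102887-44103354 for Ear2 (plus strand), chr14:43818945-43819409 for Ear1 (minus), chr14:43922901-43923368 for Ear10 (minus) and chr14:51853998-51854462 for Ear6 (plus).
Ear2: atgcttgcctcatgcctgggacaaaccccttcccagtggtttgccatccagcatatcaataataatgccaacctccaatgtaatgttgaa
Ear1: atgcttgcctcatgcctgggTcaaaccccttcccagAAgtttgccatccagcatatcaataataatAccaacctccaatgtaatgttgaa
Ear10: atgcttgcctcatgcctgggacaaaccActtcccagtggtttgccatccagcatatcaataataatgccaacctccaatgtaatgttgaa
Ear6: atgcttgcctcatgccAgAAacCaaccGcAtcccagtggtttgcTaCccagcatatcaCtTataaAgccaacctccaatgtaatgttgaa
In these 90 bases Ear1 differed from Ear2 at 4 positions, Ear10 at 1 and Ear6 at 11. Of all 100-base stretches of the Ear1 transcripts, 23.9% also occurred in another gene, mostly the pseudogene Ear-ps9, and 13.9% of those of Ear2 did, mostly in Ear10. None did for Ear6 or for the other 6 genes. Of all 50-base stretches, 57.4% for Ear1 and 41.5% for Ear2 occurred in another gene, and 23.8% of those of Ear1 occurred in Ear2. At that length Ear6, Siglecf and Il5ra had 0.954%, 0.206% and 1.01%, while Prg2, Epx, Ccr3 and Alox15 had none. Ear1 and Ear2 counts are therefore uncertain as to which copy the reads came from. Both genes also overlap genes on the opposite strand (AC154806.1 and Ang-ps2 for Ear1, Gm49101 for Ear2), and the strand setting of the counting is not given in the sources used here. On its own strand, Ear1 overlaps Ear-ps9 and Ear-ps12. The other Ear genes of the list, 9 of 13, were not analysed here.

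Upstream sequence was available from RefSeq (GRCm38.p6) for 7 of the 9 genes. The 250 bases before the start of Ear1 and of Ear2 shared an unbroken run of 197 identical bases, and each shared 57 with Ear6. The lineage factor GATA-1 and its relatives bind GATA sites, and the windows were searched on both strands for the motif AGATAA, its variant AGATAG, the form that starts with T, TGATAA, and the last variant, which is TGATAG. Matches were found before Ccr3 and Il5ra, while 26.5% of 32851 promoters of the same length held at least 1. The last 100 bases before each start are shown for these receptors, with matches in capitals, at chr9:124021871-124021970 for Ccr3 (plus strand) and chr6:106749038-106749137 for Il5ra (minus strand).
Ccr3: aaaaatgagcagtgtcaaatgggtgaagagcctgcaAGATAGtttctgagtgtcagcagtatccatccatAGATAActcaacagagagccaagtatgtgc
Il5ra: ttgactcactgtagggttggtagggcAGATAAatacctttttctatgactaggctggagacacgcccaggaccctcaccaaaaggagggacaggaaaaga
The matches lay 64 to 59 and 30 to 25 bases before the start of Ccr3, and 74 to 69 bases before that of Il5ra.

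Mesothelial markers were low in SCR lungs 1 to 3, with a summed level of 97.3, 19.6 and 6.23 CPM (counts scaled to library size by the TMM method), against 222, 312 and 296 CPM in SCR lungs 4 to 6, 110 to 329 CPM in PT lungs and 119 to 362 CPM in CTR lungs. B cell markers, a list added after the data were seen, were low in the same lungs, with 50.3, 29.2 and 64.0 CPM against 254 to 442 CPM in SCR lungs 4 to 6, 232 to 321 CPM in PT lungs and 154 to 361 CPM in CTR lungs. Xist and Y-linked genes gave 4 female lungs (SCR 4, SCR 6, PT 3 and PT 5), and the remaining 11 lungs, including every CTR lung, were male. Nothing in the labels says how the mice were housed or batched, so p-values measure the spread between these lungs only.

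No gene of the set passed the test across all genes in any comparison. With edgeR's quasi-likelihood test and Benjamini-Hochberg adjustment over 15870 genes, 0 of the 8 tested members were called at an adjusted p under 0.05 in SCR against CTR, where 0.113% of all genes were. None was called in PT against CTR, where 0% of all genes were, or in PT against SCR, where 0.0378% were. At an unadjusted p under 0.05, 2 members passed in SCR against CTR (Prg2 and Siglecf, both lower in SCR), beside 18.8% of all genes. In PT against CTR 1 passed (Prg2, lower in PT), beside 7.66%, and 1 passed in PT against SCR (Siglecf, higher in PT), beside 11.8%. The median log2 fold change of the 8 was 0.01, 0.13 and 0.46 in these comparisons, beside 0.01, 0.01 and -0.01 over all genes. The ninth gene, Epx, had too few counts for the test. SCR against CTR and PT against CTR share the same 4 CTR lungs. Limma on the deposited FPKM also called 0 members. DESeq2 called 0 of the members to which it gave an adjusted p, which were 6 of 8 in SCR against CTR, 5 of 8 in PT against CTR and all 8 in PT against SCR, and it gave none for Prg2 against CTR. By contrast, edgeR's likelihood ratio test called 1, Prg2 in SCR against CTR (log2 fold change -2.66, adjusted p = 0.0134). The plot of levels by lung gives every value.

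**Figure D1:**
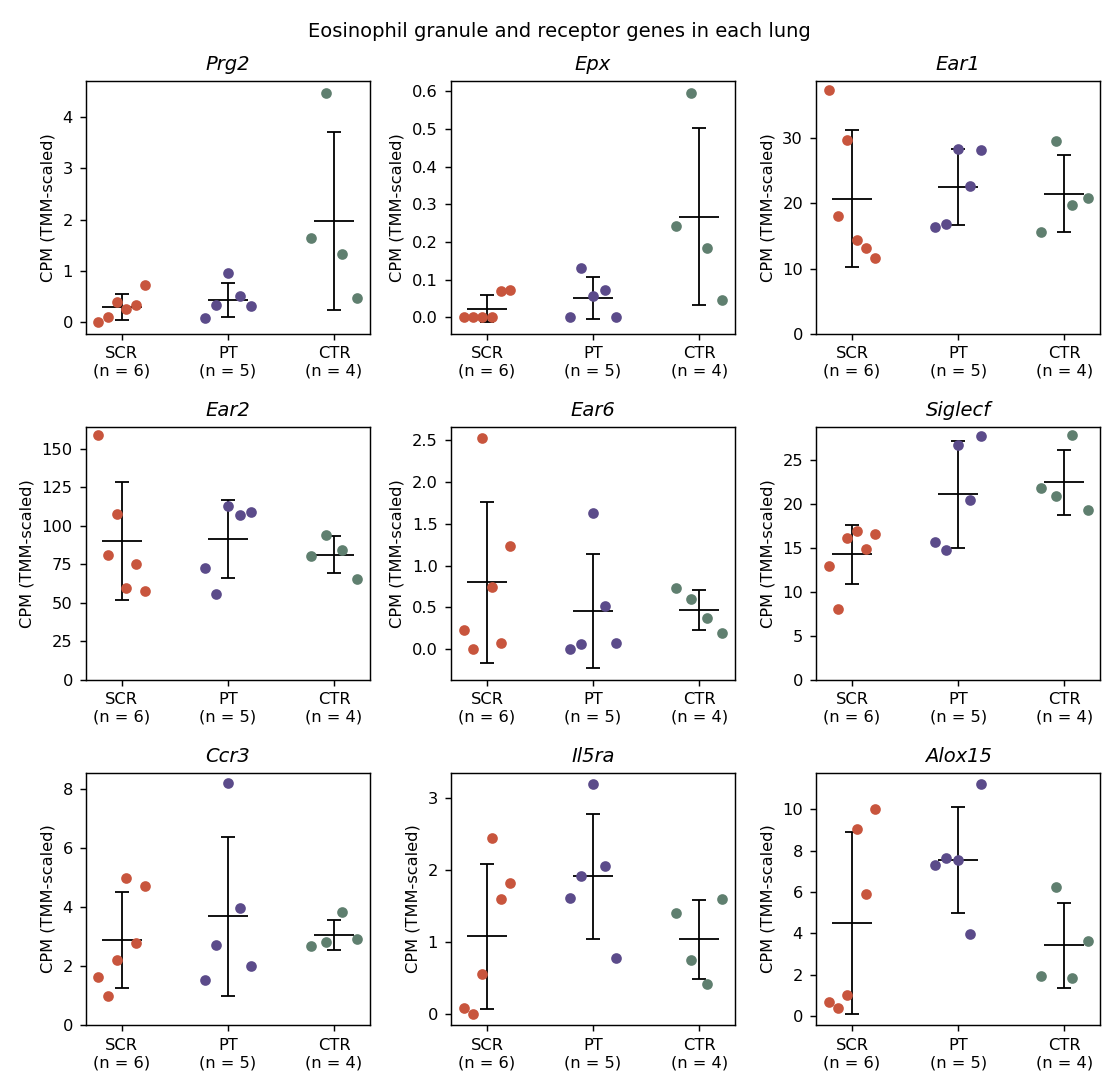
Level of each of the 9 genes in every lung (CPM, TMM-scaled, linear axes) in SCR (n = 6), PT (n = 5) and CTR (n = 4); points are lungs, in order of their number from left to right, and bars give the mean ± SD. All 6 SCR lungs lay below the CTR lungs for Siglecf, and all other genes overlapped between the groups, Prg2 and Epx among them, although these had their highest means in CTR lungs.

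Prg2 (chr2:84980461-84983632, plus strand) encodes major basic protein, the main protein of the granule core. The lowest, median and highest counts in SCR lungs were 0, 5 and 10. PT lungs 1, 2, 3, 5 and 6 had 1, 5, 17, 7 and 4 counts, and CTR lungs 1, 2, 4 and 5 had 27, 60, 29 and 10. In all, 5 of 6 SCR lungs and 3 of 5 PT lungs lay below every CTR lung, but the groups overlapped because CTR lung 5 was low. Mean levels were 0.307 ± 0.252 CPM in SCR lungs, 0.437 ± 0.327 CPM in PT lungs and 1.98 ± 1.74 CPM in CTR lungs (SD). The log2 fold change was -2.65 ± 0.68 (SE, edgeR) in SCR against CTR, with an unadjusted p of 0.00119 and an adjusted p of 0.0992. For PT against CTR it was -2.09 ± 0.69, with an adjusted p of 0.536 (edgeR). By exact two-sided permutation of the lungs, p was 0.00952 for SCR against CTR and 0.0238 for PT against CTR, where the smallest possible values are 0.00476 and 0.00794. The highest lung, CTR lung 2, set much of the size: without it the log2 fold changes were -1.89 in SCR and -1.33 in PT against CTR. Among male lungs alone, with no female CTR lung to compare, Prg2 was 0 to 0.394 CPM in 4 SCR lungs and 0.0768 to 0.330 CPM in 3 PT lungs, against 0.468 to 4.47 CPM in 4 CTR lungs. Among all genes tested, 5.27% had every male SCR lung, and 3.3% every male PT lung, below the CTR lungs in the same way.

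Epx (chr11:87864000-87875536, minus strand) encodes eosinophil peroxidase, the granule enzyme that makes hypobromous acid. It had 0 counts in 4 of the 6 SCR lungs and 1 in each of the other two. PT lungs 1, 2, 3, 5 and 6 had 0, 2, 1, 1 and 0 counts, and CTR lungs 1, 2, 4 and 5 had 4, 8, 4 and 1. The order of the group means was thus that of Prg2. Summed over lungs, Epx had 2 counts in SCR, 4 in PT and 17 in CTR. The ratio of pooled CPM was 0.0930 for SCR over CTR (95% exact interval 0.0104 to 0.392) and 0.243 for PT over CTR (0.0594 to 0.744), intervals that cover counting error only and not the spread between mice. By exact permutation, p was 0.0143 and 0.0397 (two-sided, unadjusted, as for all 27 such tests over all lungs and the 27 over male lungs). Leaving the low-count filter out, edgeR gave -3.13 ± 0.97 on the log2 scale for SCR and -2.10 ± 0.94 for PT against CTR, with adjusted p of 0.172 and 0.732. Prg3, another major basic protein gene that was not among the 9, had at most 2 counts in any lung.

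Prg2 and Epx thus both had their highest mean in CTR lungs, and so did Mpo and Elane, granule genes of neutrophil precursors. On the same granulocyte precursor list, Ctsg, Ms4a3, Fcnb, Camp and Ngp also had their highest mean in CTR lungs. Prtn3, Ltf and Gfi1 had theirs in PT lungs, and Myb in SCR lungs. Mpo, the myeloperoxidase gene, had 0 to 6 counts in SCR lungs and 1 to 9 in PT lungs, against 19 to 50 in CTR lungs, with no overlap. Of all genes tested, 2.52% had every SCR lung below the CTR lungs, and the share for all PT lungs was not computed. Its log2 fold change in SCR against CTR was -3.77 (edgeR adjusted p = 0.0416), the only call among the genes of all lists. Elane, neutrophil elastase, had 0 to 3 counts in SCR, 1 to 6 in PT and 4 to 14 in CTR lungs. Of the 7 tested members of the granulocyte precursor list (11 genes), 3 were lower and 1, Myb, was higher in SCR at an unadjusted p under 0.05, beside 18.8% of all genes. In PT against CTR their median log2 fold change was 0.05, with 4 of the 7 above 0. The summed level of the list was 19.4 to 94.0 CPM in SCR, 39.7 to 107 CPM in PT and 41.2 to 116 CPM in CTR lungs, and no marker of it was at 0 in every lung. Across 15 lungs, Prg2 and the mean log2 CPM of the 7 had Pearson's r = 0.64 (permutation p = 0.0107, adjusted p = 0.0641 over 18 relations) and Spearman's rho = 0.54 (permutation p = 0.0406, adjusted p = 0.183). Without SCR lungs 1 and 2, the farthest from the median score, r was 0.35, and within groups, after centring, 0.46. The relation of Prg2 to these precursors therefore rested in part on those 2 lungs, and the part of precursors in the Prg2 result was not tested.

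Over the 15 lungs and all genes tested, the 5 genes whose log2 CPM was most like that of Prg2 were Rrm1 (r = 0.89), Fam129a (0.88), Pld1 (0.87), Smarcal1 (0.86) and Mcm3ap (0.85), and Mpo ranked at 23 (0.80). These correlations describe lungs that share groups and library features. Rrm1, the large subunit of ribonucleotide reductase, was at 45.4 ± 6.03 CPM in SCR, 46.7 ± 9.13 CPM in PT and 60.9 ± 7.93 CPM in CTR lungs. Between members, r was taken on log2 CPM with a different small offset, so it is not on the same scale as the values above. Epx was the member closest to Prg2 (r = 0.87), although Epx had 0 counts in 6 of 15 lungs. Ear1 and Ear2 were unrelated to Prg2 (r = -0.02 and -0.12).

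Ear1 and Ear2 encode eosinophil-associated ribonucleases, relatives of human eosinophil-derived neurotoxin and eosinophil cationic protein. Ear2 was the most abundant of the 9 genes. Its lowest, median and highest counts in SCR lungs were 792, 1241.5 and 2048, PT lungs had 948, 846, 2013, 1457 and 1401, and CTR lungs 1329, 1264, 1832 and 1399. The SCR lungs spread widest of the groups. Ear2 averaged 90.0 ± 38.4 CPM in SCR, 91.5 ± 25.6 CPM in PT and 81.2 ± 11.9 CPM in CTR lungs (SD). Ear1 had 159, 298 and 481 counts as the lowest, median and highest in SCR, 213, 255, 505, 308 and 361 in PT, and 257, 397, 429 and 445 in CTR lungs. Its mean level was 20.7 ± 10.5 CPM in SCR, 22.4 ± 5.81 CPM in PT and 21.4 ± 5.88 CPM in CTR lungs. The groups overlapped for both genes, but SCR lungs lay on both sides of the CTR range. For Ear1, 3 SCR lungs were below every CTR lung and 2 above. For Ear2, 2 were below and 2 above. Log2 fold changes were -0.05 ± 0.31 for Ear1 and 0.15 ± 0.27 for Ear2 in SCR against CTR, and 0.07 ± 0.32 and 0.17 ± 0.28 in PT against CTR (SE). Without SCR lungs 1 to 3, those in SCR against CTR were -0.68 ± 0.24 and -0.31 ± 0.22 (edgeR adjusted p = 0.458 and 0.626). The lungs left out include the 2 above every CTR lung, so the lower values follow in part from that choice. Since reads may be split between the copies, Ear1, Ear2, Ear10 and the pseudogene Ear-ps2 were also summed into 1 gene, which gave 0.12 ± 0.28 in SCR and 0.19 ± 0.29 in PT against CTR. Ear-ps9 was not in the sum, so it does not cover Ear1 reads shared with that pseudogene. The sum was highest in SCR lung 1 at 330 CPM, against 106 to 235 CPM in the other 14 lungs.

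Ear1 and Ear2 followed alveolar macrophage markers from lung to lung. The score was the mean log2 CPM of 15 genes, among them Chil3, a chitinase-like secreted protein, and Marco and Fabp4, a scavenger receptor and a lipid carrier. Against it, Ear2 had r = 0.85 (permutation p = 3e-05, adjusted p = 0.00054) and rho = 0.82 (permutation p = 0.00037, adjusted p = 0.00666) over 15 lungs. Ear1 had r = 0.81 (permutation p = 0.00034, adjusted p = 0.00306) and rho = 0.78 (permutation p = 0.00112, adjusted p = 0.0101). Without SCR lung 1 and PT lung 5, the farthest from the median score, r was 0.82 for Ear2 and 0.81 for Ear1, and with each group centred it was 0.90 and 0.83. For the other 7 genes r ran between -0.22 for Epx and 0.32 for Siglecf, none past the adjusted threshold. The summed level of the 15 markers was 1058 to 2809 CPM in SCR, 1068 to 2094 CPM in PT and 1375 to 1847 CPM in CTR lungs, and none was at 0 in every lung. The markers did not move as one in SCR lungs 1 to 3: Chil3 had 18063 to 23184 counts there, against 10383 to 18723 in CTR lungs, while Itgax had 392 to 462, against 851 to 1362 in CTR lungs.

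**Figure D2:**
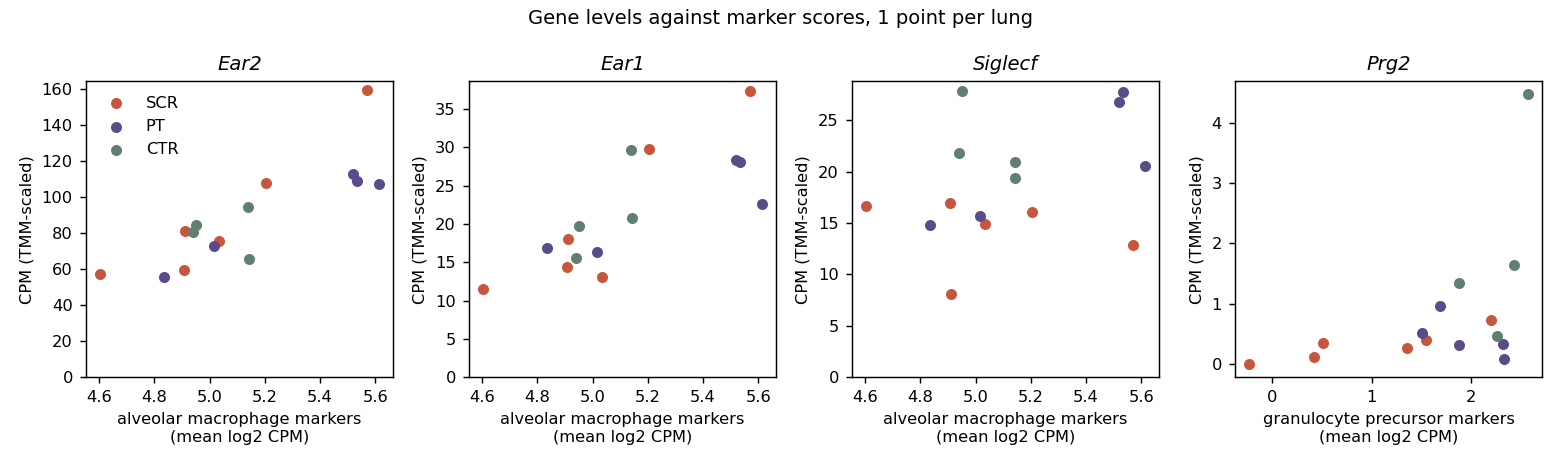
Ear2, Ear1 and Siglecf against the alveolar macrophage score, and Prg2 against the granulocyte precursor score, each score being the mean log2 CPM of its tested markers; the vertical axis is CPM (TMM-scaled) and each point is 1 lung of SCR, PT or CTR. Ear2 and Ear1 were higher in lungs with a higher score (r = 0.85 and 0.81 on the log2 scale), Siglecf was less so (r = 0.32), and CTR lung 2 was highest in both Prg2 and the precursor score.

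Ear6, a ribonuclease gene of the same family that lies away from Ear1 and Ear2 on chromosome 14, was low and scattered. SCR lungs 1 to 6 had 3, 0, 32, 14, 1 and 17 counts, PT lungs 0, 1, 29, 7 and 1, and CTR lungs 12, 8, 8 and 4. The highest 2 lungs were SCR lung 3 and PT lung 3, at 2.52 and 1.62 CPM, and the CTR lungs lay inside the range of both other groups. Log2 fold changes were 0.76 ± 1.02 in SCR and 0.08 ± 1.06 in PT against CTR (SE), both smaller than their own standard error. Without PT lung 3, the value in PT against CTR was -1.43. Among male lungs alone, Ear6 was 0 to 0.0778 CPM in 3 PT lungs and 0.187 to 0.728 CPM in 4 CTR lungs (exact two-sided permutation p = 0.0571). Of all genes tested, 3.3% had every male PT lung below the CTR lungs. The 4 male SCR lungs ran from 0 to 2.52 CPM. Ear6 went with Ccr3 more than with Ear1 or Ear2 (r = 0.66, 0.19 and 0.18 over 15 lungs).

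Siglecf (chr7:43351341-43359531, plus strand) encodes Siglec-F, a sialic acid-binding inhibitory receptor of eosinophils and alveolar macrophages. The lowest, median and highest counts in SCR lungs were 145, 209.5 and 320, PT lungs had 204, 224, 478, 279 and 357, and CTR lungs 360, 281, 604 and 413. Scaled to depth, SCR lungs had 12.9, 8.09, 16.1, 17.0, 14.9 and 16.6 CPM, all below the lowest CTR lung. PT lungs had 15.7, 14.8, 26.8, 20.5 and 27.8 CPM, and CTR lungs 21.9, 21.0, 27.8 and 19.3 CPM. It was the only one of the 9 genes with no overlap between SCR and CTR, beside 2.52% of all genes tested whose 6 SCR lungs all lay below the CTR lungs, and the exact p of 0.00476 is the smallest these lungs allow (two-sided permutation). The log2 fold change was -0.66 ± 0.22 (SE) in SCR against CTR, with an edgeR p of 0.00753 and an adjusted p of 0.145. In PT against CTR it was -0.09 ± 0.23, while in PT against SCR it was 0.57 ± 0.21, with an adjusted p of 0.295 (edgeR) and an exact permutation p of 0.0476.

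The Siglecf difference was smaller without SCR lungs 1 to 3. Leaving them out gave a log2 fold change of -0.44 ± 0.22 in SCR against CTR (edgeR adjusted p = 0.510). The other 3 SCR lungs were at 14.9 to 17.0 CPM, and the share of all genes that lay below CTR in this subset was not computed. Among male lungs, Siglecf was 8.09 to 16.1 CPM in 4 SCR lungs and 19.3 to 27.8 CPM in 4 CTR lungs. Of all genes tested, 5.27% had every male SCR lung below the CTR lungs. Itgax, the CD11c integrin of alveolar macrophages and dendritic cells, also had a negative log2 fold change, of -0.67 (edgeR unadjusted p = 0.0014, adjusted p = 0.1005), in SCR against CTR. The median of the 15 alveolar macrophage markers was 0.09, with 9 above 0. Of the 7 tested members of the Siglec family list, 6 were below 0 in SCR against CTR with a median of -0.20, and 1, Siglec1 of tissue macrophages, had an unadjusted p under 0.05 (log2 fold change -0.79). Of the same 7 genes, 6 were above 0 in PT against CTR, with Siglece and Siglech at 0.92 and 0.97 (edgeR adjusted p = 0.581 and 0.579), and Siglec1 was at -0.60.

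Ccr3 (chr9:124021971-124031689, plus strand) encodes the eotaxin receptor that draws eosinophils into tissues. The lowest, median and highest counts in SCR lungs were 18, 34 and 94, PT lungs had 20, 41, 146, 54 and 26, and CTR lungs 44, 38, 83 and 62. The CTR lungs lay in the middle of both other groups. Ccr3 averaged 2.89 ± 1.63 CPM in SCR, 3.68 ± 2.68 CPM in PT and 3.06 ± 0.52 CPM in CTR lungs (SD), with log2 fold changes of -0.08 ± 0.46 and 0.28 ± 0.48 (SE) against CTR. The 4 female lungs had the 4 highest levels of all 15, with 4.99 and 4.72 CPM in SCR lungs 4 and 6 and 8.18 and 3.97 CPM in PT lungs 3 and 5. The male lungs had 1.00 to 2.77 CPM in SCR, 1.54 to 2.70 CPM in PT and 2.67 to 3.82 CPM in CTR. This split was noticed after the values were seen and was not tested. The share of all genes that split by sex in the same way was not computed. With a sex term in the model the log2 fold change was -0.72 ± 0.30 in SCR against CTR (edgeR unadjusted p = 0.0272, adjusted p = 0.182) and -0.50 ± 0.32 in PT against CTR. The direction of Ccr3 in PT against CTR was therefore the opposite of the one without that term.

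**Figure D3:**
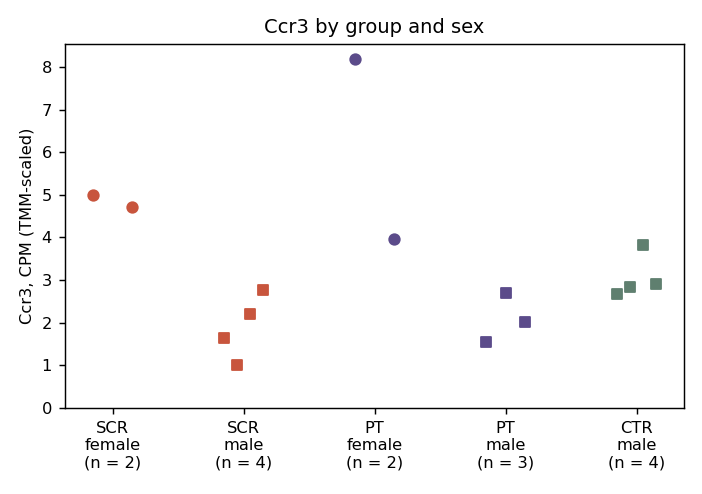
Ccr3 level in CPM (TMM-scaled, linear axis from 0) in SCR, PT and CTR lungs, split by sex as read from Xist and Y-linked genes; circles are females and squares are males, 1 point per lung, and no CTR lung was female. The 4 females lay between 3.97 and 8.18 CPM, above all 11 males, and the share of all genes that did so was not computed.

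Il5ra (chr6:106710357-106749037, minus strand) encodes the alpha chain of the interleukin 5 receptor. SCR lungs 1 to 6 had 1, 0, 7, 46, 23 and 25 counts, PT lungs 21, 29, 57, 28 and 10, and CTR lungs 23, 10, 9 and 34. Scaled to depth, SCR lungs 1 to 3 were low, at 0 to 0.552 CPM, so the SCR group split in its level. SCR lungs 4 to 6 had 2.44, 1.59 and 1.81 CPM, against 1.59 CPM in the highest CTR lung. Mean levels were 1.08 ± 1.01 CPM in SCR, 1.91 ± 0.872 CPM in PT and 1.04 ± 0.551 CPM in CTR lungs (SD). For Il5ra 4 of 5 PT lungs lay above every CTR lung. The log2 fold changes against CTR were 0.07 ± 0.74 in SCR and 0.88 ± 0.76 in PT (SE), with an exact permutation p of 0.119 in PT. Without SCR lungs 1 to 3, they were 0.93 ± 0.48 and 0.89 ± 0.43 (edgeR adjusted p = 0.521 and 0.406). The lungs left out were the lowest of the SCR group in Il5ra, so the higher SCR value follows from that choice. Fitted with a sex term, the log2 fold changes were -0.67 and 0.25.

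Alox15 (chr11:70344152-70352031, minus strand) encodes 12/15-lipoxygenase, which oxidises arachidonic and linoleic acid. SCR lungs 1 to 6 had 9, 7, 13, 170, 85 and 138 counts, PT lungs 95, 116, 135, 54 and 144, and CTR lungs 32, 84, 40 and 78. It showed the same split of the SCR lungs as Il5ra, with lungs 1 to 3 at 0.699, 0.391 and 1.02 CPM and lungs 4 to 6 at 9.02, 5.89 and 10.0 CPM. PT lungs lay between 3.97 and 11.2 CPM and CTR lungs between 1.84 and 6.26 CPM, and 4 of the 5 PT lungs lay above every CTR lung. The log2 fold change was 1.15 ± 0.75 (SE) in PT against CTR, with an edgeR adjusted p of 0.768 and an exact permutation p of 0.0476. In SCR against CTR it was 0.42 ± 0.72. Leaving SCR lungs 1 to 3 out gave 1.33 ± 0.41 in SCR and 1.17 ± 0.37 in PT against CTR, with unadjusted edgeR p of 0.0063 and 0.0077 and adjusted p of 0.445 and 0.237. The lungs left out were the lowest of all in Alox15, so the higher SCR value follows from that choice. The PT value hardly moved from 1.15, and its SE fell from 0.75 since the groups share a common estimate of the spread. These p-values are therefore not read as support for a difference. SCR lungs 1 to 3 and 5 were male and lungs 4 and 6 female, so this subset also differed in sex from the all-male CTR lungs. With a sex term the log2 fold changes were -0.20 in SCR and 0.89 in PT against CTR, and in male lungs only -0.75 and 1.37. Among male lungs alone the PT and CTR lungs did not overlap, at 7.30 to 11.2 CPM in 3 PT lungs against 1.84 to 6.26 CPM in 4 CTR lungs (exact two-sided permutation p = 0.0571), as for 3.28% of all genes tested.

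Il5ra and Alox15 were the closest pair of the set apart from Prg2 with Epx and Ear1 with Ear2 (r = 0.82 over 15 lungs), and their low SCR lungs were those low in mesothelial and B cell markers. These low lungs were all male, while SCR lungs 4 and 6 were female and lung 5 male, and the part of sex in this split was not tested. Cd22, a Siglec of B cells, had 108, 98 and 103 counts in SCR lungs 1 to 3, against 499 to 1080 in SCR lungs 4 to 6, 398 to 639 in PT lungs and 385 to 1167 in CTR lungs. Upk3b, a mesothelial surface protein gene, had 614, 158 and 14 counts in SCR lungs 1 to 3, against 1606 to 1809 in SCR lungs 4 to 6, 659 to 1931 in PT lungs and 788 to 2649 in CTR lungs. The part of B cells and mesothelium in the levels of Il5ra and Alox15 was not tested. Peritoneal macrophage markers had a summed level of 189 to 285 CPM in SCR, 228 to 267 CPM in PT and 219 to 298 CPM in CTR lungs, most of it from Icam2, which endothelium also makes. In that list F5 had 31, 40 and 50 counts in SCR lungs 1 to 3 and 92 to 233 in the other lungs. Timd4 had 24, 43 and 36 counts in SCR lungs 1 to 3, 57 to 65 in the other SCR lungs, 40 to 79 in PT lungs and 36 to 81 in CTR lungs. The part of peritoneal macrophages in the levels of Il5ra and Alox15 was not tested.

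**Figure D4:**
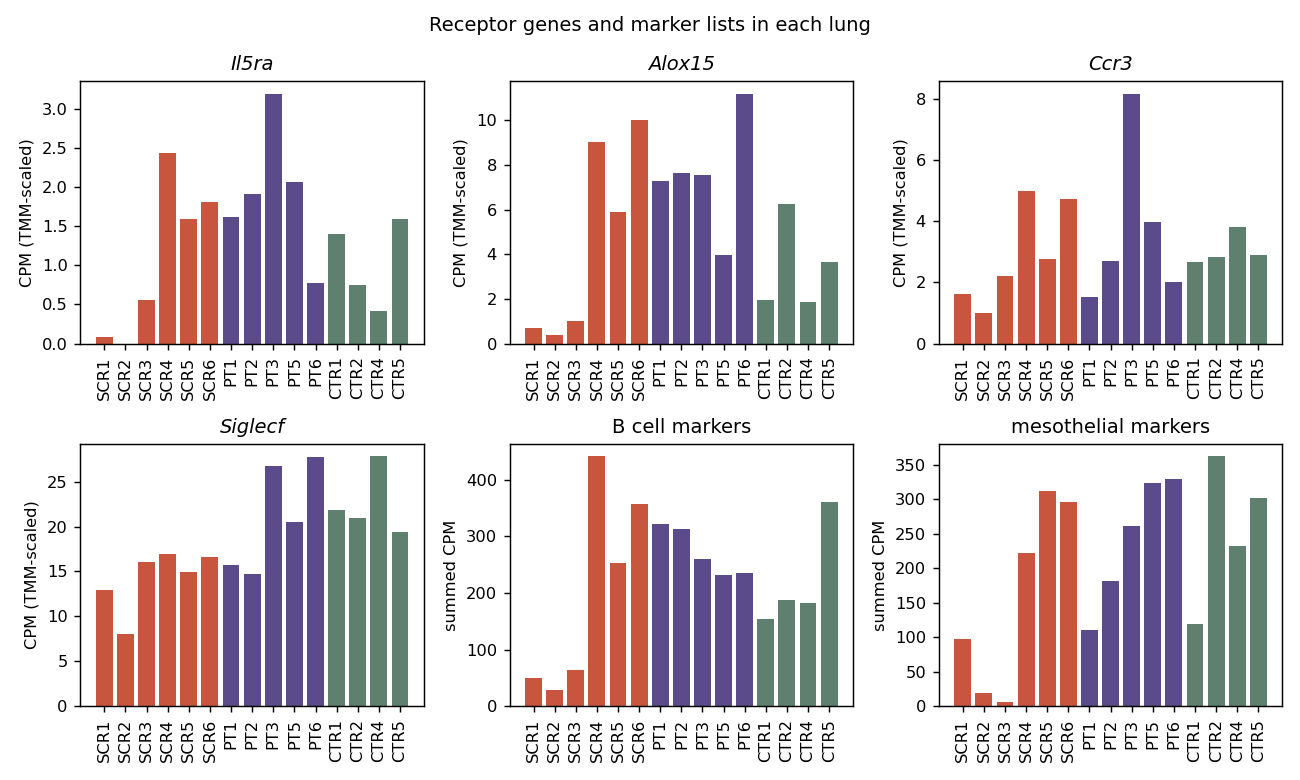
Il5ra, Alox15, Ccr3 and Siglecf (CPM, TMM-scaled) and the summed CPM of B cell and mesothelial markers, with 1 bar per lung for SCR, PT and CTR and axes from 0. SCR lungs 1 to 3 were low in Il5ra (0 to 0.552 CPM), in Alox15 (0.391 to 1.02 CPM) and in both marker sums.

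**Figure D5:**
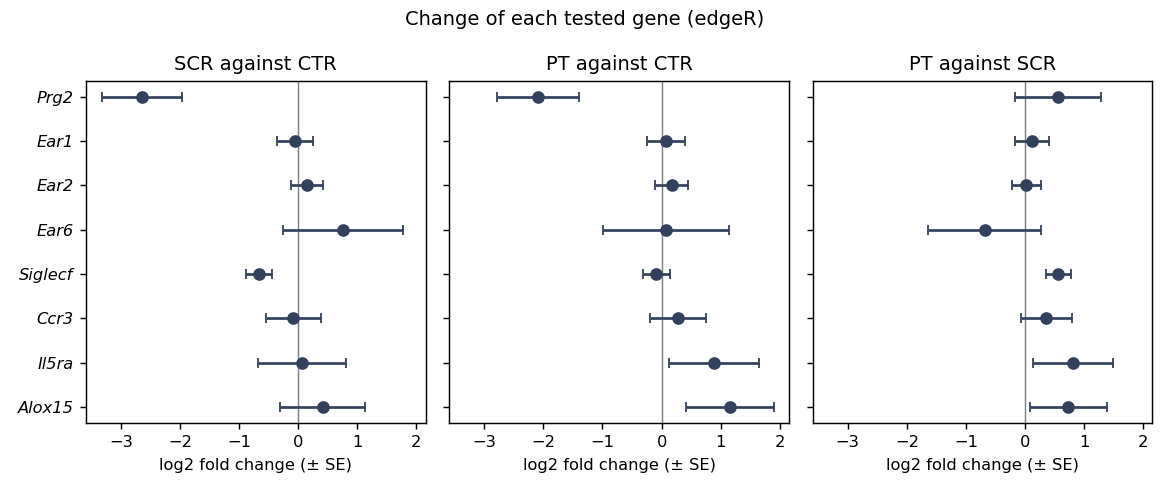
Log2 fold change of the 8 tested genes with its standard error (edgeR) in SCR against CTR, PT against CTR and PT against SCR, where 0 means no difference. Prg2 lay farthest from 0 against CTR (-2.65 in SCR and -2.09 in PT), and in SCR against CTR only the bars of Prg2 and Siglecf did not reach across 0.

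Per kilobase of gene length, the mean levels over 15 lungs ran from Ear2 (123 CPM per kb) through Ear1 (29.4), Siglecf (6.71), Alox15 (2.13), Ccr3 (0.977), Prg2 (0.950), Ear6 (0.632) and Il5ra (0.376) to Epx (0.0359). Ear2, Ear1 and Siglecf each exceeded the next gene in all 15 lungs. The place of Prg2 depended on the group, with a mean of 0.367 CPM per kb in SCR, 0.521 in PT and 2.36 in CTR lungs, where Alox15 was at 1.40 and Ccr3 at 0.934. Below them the neighbours did not separate beyond their spread: Alox15 exceeded Ccr3 in 10 of 15 lungs, Ccr3 exceeded Prg2 in 12, Prg2 exceeded Ear6 in 10 and Ear6 exceeded Il5ra in 8. Il5ra exceeded Epx in 13. The 3 genes shared with alveolar macrophages were thus the 3 most abundant, and the granule genes Prg2 and Epx together had 210 of the 32457 counts of the set. Whether the Ear1, Ear2 and Siglecf reads came from eosinophils or alveolar macrophages cannot be told apart in these libraries.

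Ligands of these receptors were measured too. Il5 had 0 to 5 counts in SCR, 1 to 5 in PT and 0 to 1 in CTR lungs, too few for the test. Il13 had at most 2, Il25 at most 1 and Il3 none in any lung, which allows up to 3 counts per library. The eotaxin Ccl11 had 11 to 125 counts in SCR, 38 to 68 in PT and 55 to 82 in CTR lungs, and Ccl24, another eotaxin of the lung, 2 to 17, 3 to 17 and 2 to 14. Of the 9 tested chemoattractants and cytokines (14 listed), 1 was lower (Ccl7) and 1 higher (Csf2) in SCR against CTR at an unadjusted p under 0.05, and 3 were higher in PT against CTR (Ccl7, Ccl8 and Csf2), beside 18.8% and 7.66% of all genes. Csf2 is the growth factor GM-CSF, which also keeps eosinophils alive, and on the log2 scale it was 0.78 higher in SCR and 0.81 higher in PT than in CTR (edgeR adjusted p = 0.156 and 0.559). The list median was 0.11 in SCR and 0.55 in PT against CTR, beside 0.01 over all genes in each.

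Downstream of the receptors, 4 of 14 interleukin 5 signalling genes were lower in SCR against CTR at an unadjusted p under 0.05 and none was higher, beside 18.8% of all genes in either direction, with a list median of -0.28. They were Cish, a feedback inhibitor of STAT5 (log2 fold change -0.63, edgeR adjusted p = 0.0953), Csf2rb2, a receptor beta chain (-0.56), Stat5b (-0.28) and Ptpn11 (-0.28). Csf2rb2 had 130, 150 and 131 counts in SCR lungs 1 to 3, 245 to 303 in the other SCR lungs and 287 to 474 in CTR lungs, so it was lowest in the lungs low in B cell and mesothelial markers, whose part here was not tested. In PT against CTR none of the 14 passed and the median was 0.10. Among other CC chemokine receptors, the log2 fold changes in PT against CTR were 1.20 for Ccr1 and 1.21 for Ccr2 (edgeR adjusted p = 0.494 and 0.645), and in SCR against CTR they were 0.07 and 0.39. Of 11 tested lineage regulators, 2 were lower and 1 was higher in SCR at an unadjusted p under 0.05, beside 18.8% of all genes, among them Zfpm1, the GATA cofactor FOG-1 (-0.47), and 3 were higher in PT (Spi1, Id2 and Xbp1), beside 7.66%.

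Other genes of eosinophil and leukotriene biology gave no call either. Alox5, which starts leukotriene synthesis, was at -0.59 in SCR against CTR (edgeR adjusted p = 0.1005), and its partner Alox5ap at 0.73 in PT against CTR (adjusted p = 0.494). Of 10 tested other eosinophil genes, 2 were lower (Alox5 and Adgre1) and 1 higher (Cd24a) in SCR at an unadjusted p under 0.05, and 2 were higher in PT. For this and the lists that follow, that threshold was passed by 18.8% of all genes in SCR and 7.66% in PT against CTR. Of 10 tested lipoxygenase pathway genes, 2 were lower in SCR and 1 was higher in PT. Mast cell and basophil markers gave 2 lower in SCR (Hdc and Kit) and none in PT, of 7 tested. Mature neutrophil markers gave none in SCR and 4 higher in PT (S100a8, S100a9, Cxcr2 and Il1r2), of 9 tested, with a list median of 1.04. Lung epithelial markers gave 2 higher in SCR (Scgb1a1 and Scgb3a2) of 8, and red cell, mesothelial, peritoneal macrophage and B cell markers gave none in either comparison. Of the Ear list, Ear10 had 224 to 920 counts and Rnase2a 5 to 21, with log2 fold changes of 0.16 and -0.12 in SCR against CTR, Rnase2b had at most 2 counts, and Ear14 had none.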

How the data were processed

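The deposited values were raw counts of reads per gene, 1 column per lung, and FPKM. The counts, per the submitters' processing notes and the study's methods, came from single-end reads that the authors trimmed (cutadapt 1.15), cleaned of contaminants (Bowtie2 2.3.3.1), aligned to GRCm38 (STAR 2.5.2b, SAMtools 1.5) and counted (featureCounts 1.5.3). The authors made the FPKM with EDASeq normalization, for 16137 genes that include 8 of the 9 members. Genes that passed edgeR's low-count filter were fitted over all 15 lungs (edgeR 4.0.16, R 4.3.3, TMM, robust quasi-likelihood). Groups were taken from the labels, where SCR is MC and PT is TS. Alternatives used DESeq2 1.42.0, limma 3.58.1 on log2(FPKM + 1), the likelihood ratio test, other scalings and filters, only the groups compared, a replicate block, a sex term, and lungs left out. Exact permutation tests and correlations with 100000 permutations used Python 3.11.15, numpy 2.4.6, scipy 1.17.1 and pandas 2.3.3, and figures matplotlib 3.10.9. The fit was tested on simulated counts. The rule named all 9 members, the up to 4 genes of each list with the smallest p against CTR, the 5 genes most like Prg2, and markers that moved with a member; other list genes were named after their values were seen. Members and lists were chosen with earlier results of these data known. At 12767431 to 22109856 counts per lung, counting error is small for Ear2 and large for Prg2, Epx, Ear6 and Il5ra. The counts over the list of CC chemokine receptors are not reported here.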

Additional observations from a re-analysis of the deposited data

How the results depend on the processing

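Of the calls, 1 changed: edgeR's likelihood ratio test called 1 member in SCR against CTR, Prg2 (log2 fold change -2.66, adjusted p = 0.0134). Apart from DESeq2, the shares of all genes called under the alternatives are not given here. Under the other alternatives run 0 members were called, although DESeq2 gave Prg2 no adjusted p against CTR and so could not call it there, and the log2 fold changes of Prg2 against CTR and of Siglecf in SCR against CTR kept their sign. Leaving out each lung in turn gave -3.08 to -1.89 for Prg2 in SCR against CTR, -2.62 to -1.33 for Prg2 in PT against CTR, and -0.73 to -0.54 for Siglecf in SCR against CTR. Other members turned sign under some settings, both genes near 0 and Ear6, Il5ra and Alox15, which were not, and the cause was not tested.

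In SCR against CTR, the log2 fold change turned to 0.12 for Ear1 with the Ear copies summed (added after seeing the data). With a sex term it turned to 0.016 for Ear1, -0.67 for Il5ra and -0.20 for Alox15. In male lungs only (added after seeing the data, 7 members tested, without Ear6) it turned to 0.20, -0.90 and -0.75. Without SCR lungs 1 to 3 it was -0.31 for Ear2 and 0.48 for Ccr3, and with limma -0.047 for Il5ra. The labels do not say whether lung numbers pair the samples, and this was not tested. The 12 same-number pairs had correlations of -0.30 to 0.38 (4 over 0.1), and other pairs -0.44 to 0.38. With the replicate block the values were -0.74 for Ear6, -0.31 for Il5ra and -0.14 for Alox15 in SCR against CTR, and -0.11 for Ear1 and -1.57 for Ear6 in PT against CTR, and the block changed no call.

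In PT against CTR, limma gave -0.024 for Ear1, -0.19 for Ear6 and -0.15 for Ccr3. Male lungs gave -0.052 for Ear1, -0.017 for Ear2 and -0.53 for Ccr3, and the sex term -1.15 for Ear6 and -0.50 for Ccr3. For Ear6 DESeq2 gave -0.0086 and the likelihood ratio test -0.012. In PT against SCR, male lungs gave -0.25 for Ear1 and -0.41 for Ear2, and leaving out SCR lungs 1 to 3 gave -0.18 for Ccr3, -0.040 for Il5ra and -0.16 for Alox15.

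Leaving out 1 lung at a time gave these ranges where the sign turned. In SCR against CTR they were -0.29 to 0.14 for Ear1, -0.081 to 0.25 for Ear2, -0.015 to 1.06 for Ear6, -0.32 to 0.10 for Ccr3 and -0.37 to 0.37 for Il5ra. In PT against CTR they were -0.058 to 0.26 for Ear1, -1.43 to 0.38 for Ear6, -0.21 to 0.027 for Siglecf and -0.26 to 0.47 for Ccr3. In PT against SCR they were -0.0024 to 0.37 for Ear1, -0.076 to 0.26 for Ear2, -2.19 to 0.095 for Ear6 and -0.17 to 0.59 for Ccr3.

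Of the relations to marker scores, r turned sign without the 2 lungs farthest from the median score for Prg2 (0.0757), Il5ra (0.0669) and Alox15 (0.125) against alveolar macrophages, and for Ear1 (0.141), Ear6 (-0.0350), Ccr3 (-0.225) and Il5ra (-0.141) against granulocyte precursors. Centred on each group it turned for Ccr3 against alveolar macrophages (-0.0336). None of these 8 passed the adjusted threshold in any form. At this depth the counts of Epx, Ear6 and Prg2 leave wide intervals.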
